A study of Homo sapiens with 3 samples.

Results

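Genes of secreted matricellular proteins and of intracellular signalling were followed through 3 single-cell RNA-seq libraries of prostate cancer cell lines. CCN3, CCN1 and CCN2 encode matricellular proteins of the CCN family, FBLN2 encodes the matrix glycoprotein fibulin 2, RGS4 encodes a regulator of G protein signalling, and SHROOM1 encodes an actin-binding protein. They are 6 of the 33423 genes listed over the 3 libraries. They were chosen by measured values, as genes higher in VCaP cells under enzalutamide (ENZ) than under vehicle, so the ratios between the VCaP libraries are a description and not a finding. By those same values the description held for CCN3, FBLN2, RGS4 and SHROOM1 and did not hold for CCN1 and CCN2.

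The libraries were made by Drop-seq, a droplet method in which a bead tags the mRNA of a single cell with a shared cell barcode and every molecule with its own unique molecular identifier (UMI). VCaP parental was the VCaP line after 48 h in the vehicle, 0.1% DMSO. VCaP–ENZ48 was VCaP after 48 h in 10 µM ENZ, and LNCaP–ENZ168 was LNCaP after 168 h in 10 µM ENZ. ENZ is an inhibitor of the androgen receptor, and both lines are established prostate cancer lines that express that receptor. Each condition had 1 library, so no difference had a replicate check, no test was made, and every interval is a 95% interval for counting error only. Without an LNCaP library in vehicle to set beside it, line, time in the drug and preparation cannot be told apart for LNCaP–ENZ168.

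The 997, 947 and 944 cells kept for VCaP parental, VCaP–ENZ48 and LNCaP–ENZ168 held 19515202, 14301287 and 6313283 UMIs, with medians of 17817, 11224 and 5389 UMIs per cell. Levels are UMIs summed over the kept cells and scaled to a library total of 1000000 (CPM). A UMI counts a molecule once from its 3′ end, so CPM can be compared between genes without a correction for length. No kept barcode was shared between libraries, with 0 in each pair. All 9 luminal epithelial markers were at 10 CPM or more in both VCaP libraries and 8 of 9 were in LNCaP–ENZ168. ERG, which a fusion drives in VCaP, was at 105 and 57.1 CPM in VCaP parental and VCaP–ENZ48 and had 0 UMIs in LNCaP–ENZ168. Barcodes ending in N, a letter that names no particular base, made up 859, 820 and 205 of the kept cells in the order above. How the N arose is not given in the sources used here.

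CCN proteins are secreted into the matrix, where they bind integrins, heparan sulphate proteoglycans and growth factors rather than build fibres. CCN1 and CCN2 are classic immediate early genes and targets of the Hippo pathway coactivators YAP and TAZ with their DNA-binding partners, the TEAD factors, whereas CCN3 often moves against CCN2 and is known as a gene that androgen represses in prostate cancer cells. Fibulin 2 links basement membranes and elastic fibres. RGS4 speeds GTP hydrolysis on Gi and Gq alpha subunits and so shortens signals from their receptors, and Shroom proteins bind actin and help to shape epithelial cells.

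The DNA before the start of each gene was read first, because FBLN2, RGS4 and SHROOM1 were all highest in VCaP–ENZ48 and CCN2 was near 0 in every library. RefSeq promoters of build GRCh38.p14 were matched for 4 of the 6 genes (CCN2, FBLN2, RGS4 and SHROOM1), and the first listed start of each is shown 5′ to 3′. Capitals mark matches to a searched motif on either strand. For TEAD factors the letters searched were GGAATG, and for the AP-1 dimers of FOS and JUN proteins they were TGANTCA. SMAD factors of the TGF-beta pathway were searched as CAGACA, and the hexamer bound by the androgen and glucocorticoid receptors as AGAACA. The TATA box was searched as TATAAA, SP1 as GGGCGG, and SRF by its CArG box. CCN2 is shown from chr6:131951373-131951622 on the minus strand, FBLN2 from chr3:13548875-13549124 on the plus strand, RGS4 from chr1:163068621-163068774 on the plus strand and SHROOM1 from chr5:132830660-132830897 on the minus strand. Bases of these 250-base windows that lie within the gene as annotated in Gencode 44 are left out of the letters.
CCN2: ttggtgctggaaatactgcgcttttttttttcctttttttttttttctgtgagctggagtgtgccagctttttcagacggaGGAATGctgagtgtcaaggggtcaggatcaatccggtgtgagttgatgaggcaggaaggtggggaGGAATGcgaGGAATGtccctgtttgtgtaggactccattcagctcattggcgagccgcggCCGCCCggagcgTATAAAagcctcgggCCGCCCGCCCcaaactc
FBLN2: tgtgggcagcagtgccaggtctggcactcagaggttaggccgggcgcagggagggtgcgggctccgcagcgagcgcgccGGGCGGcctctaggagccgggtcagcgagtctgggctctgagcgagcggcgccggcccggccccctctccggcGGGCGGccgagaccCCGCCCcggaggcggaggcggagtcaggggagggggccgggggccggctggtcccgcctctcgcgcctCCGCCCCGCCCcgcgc
RGS4: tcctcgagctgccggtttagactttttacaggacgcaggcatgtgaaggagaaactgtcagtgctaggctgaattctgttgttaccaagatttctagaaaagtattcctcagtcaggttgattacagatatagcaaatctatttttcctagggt
SHROOM1: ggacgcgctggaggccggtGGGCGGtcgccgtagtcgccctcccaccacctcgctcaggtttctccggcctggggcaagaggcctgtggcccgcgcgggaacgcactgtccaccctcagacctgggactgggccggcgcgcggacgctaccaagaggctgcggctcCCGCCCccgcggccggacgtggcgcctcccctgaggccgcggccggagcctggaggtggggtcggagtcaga

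The CCN2 window held 3 TEAD matches, which began 169, 104 and 95 bases before the start, and a TATA box that began 32 bases before it. Of 34788 distinct promoter windows of 250 bases, 11.9% held at least 1 TEAD match and 0.0834% held 3 or more. A TATA box was found in 10.8% of all windows. SP1 matches numbered 5 in FBLN2, 3 in CCN2 and 2 in SHROOM1, where overlapping matches were each counted and 42.6% of all windows held at least 1. RGS4 held 0 SP1 matches and a single SMAD match, which lies in the part not shown and is a motif of 13.6% of windows. GC content was 80.4% for FBLN2, 76% for SHROOM1, 53.2% for CCN2 and 42.8% for RGS4, against a median of 58% over all windows. None of the 4 windows held an AP-1 match, an androgen receptor hexamer or a CArG box, which were found in 6.59%, 12.4% and 1.17% of all windows. RGS4 has 4 starts in the table and FBLN2 and SHROOM1 have 2 each, and another start of RGS4 held a TATA box and another of SHROOM1 a TEAD match, so these counts depend on the start chosen.

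CCN3 was the most abundant of the 6 genes in VCaP–ENZ48. CCN3 (GRCh38 chromosome 8, 119416446 to 119424434, plus strand) was at 28.4 CPM (26.1 to 30.9, 554 UMIs) in VCaP parental, at 328 CPM (319 to 337, 4689 UMIs) in VCaP–ENZ48 and at 20.1 CPM (16.8 to 23.9, 127 UMIs) in LNCaP–ENZ168. VCaP–ENZ48 was the high library, and the 3 intervals did not overlap. CCN3 was 11.5-fold (10.6 to 12.6) higher in VCaP–ENZ48 than in VCaP parental, which as a log2 ratio of CPM + 1 is 3.48. Against VCaP–ENZ48, LNCaP–ENZ168 was 16.3-fold (13.7 to 19.6) lower. CCN3 overlaps 2 unnamed noncoding genes of the annotation, so some of its UMIs may have been dropped or given to them.

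CCN1 and CCN2, the family members known as YAP and TEAD targets, did not follow CCN3. CCN1 (chromosome 1, 85580761 to 85584589, plus strand) was at 27.3 CPM (25 to 29.7, 532 UMIs) in VCaP parental, at 23.8 CPM (21.3 to 26.4, 340 UMIs) in VCaP–ENZ48 and at 69.2 CPM (62.9 to 76.0, 437 UMIs) in LNCaP–ENZ168. The VCaP intervals overlapped and LNCaP–ENZ168 was the high library, the reverse of the order for CCN3. The log2 ratio of CCN1 between the VCaP libraries was -0.19 (-0.40 to 0.0016), and CCN1 was 2.91-fold (2.52 to 3.36) higher in LNCaP–ENZ168 than in VCaP–ENZ48. CCN2 (chromosome 6, 131948176 to 131951372, minus strand) was close to the limit of detection everywhere, with 5 UMIs in VCaP parental, 6 in VCaP–ENZ48 and 0 in LNCaP–ENZ168. These are 0.256, 0.42 and 0 CPM, and a count of 0 in LNCaP–ENZ168 allows up to 0.475 CPM. The log2 ratio of CCN2 between the VCaP libraries was 0.18 (-1.26 to 2.76), so no difference of CCN2 was detectable at this depth in either direction. CCN2 also overlaps LINC01013 in the annotation.

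FBLN2 followed the order of CCN3. FBLN2 (chromosome 3, 13549125 to 13638422, plus strand) was at 19.7 CPM (17.8 to 21.8, 384 UMIs) in VCaP parental, at 206 CPM (198 to 213, 2939 UMIs) in VCaP–ENZ48 and at 6.49 CPM (4.66 to 8.81, 41 UMIs) in LNCaP–ENZ168. The intervals of the 3 libraries did not overlap, and VCaP–ENZ48 was 10.4-fold (9.39 to 11.6) higher than VCaP parental. LNCaP–ENZ168 was 31.6-fold (23.3 to 44.2) lower than VCaP–ENZ48.

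The signalling gene RGS4 had the widest range. RGS4 (chromosome 1, 163068775 to 163076802, plus strand) was at 3.79 CPM (2.98 to 4.76, 74 UMIs) in VCaP parental, and VCaP–ENZ48 was 14.2-fold (11.2 to 18.3) higher at 53.8 CPM (50.1 to 57.8, 770 UMIs). A single UMI was counted in LNCaP–ENZ168, which is 0.158 CPM with an upper bound of 0.883 CPM. The ratio of VCaP–ENZ48 to LNCaP–ENZ168 was 340-fold, with a counting interval from 60.8 to 13443, and its size rests on that UMI.

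SHROOM1, the cytoskeletal gene of the group, was again highest in VCaP–ENZ48. SHROOM1 (chromosome 5, 132822141 to 132830659, minus strand) was at 7.28 CPM (6.13 to 8.58, 142 UMIs) in VCaP parental, at 67.1 CPM (62.9 to 71.5, 960 UMIs) in VCaP–ENZ48 and at 10.5 CPM (8.09 to 13.3, 66 UMIs) in LNCaP–ENZ168. The order was VCaP–ENZ48, LNCaP–ENZ168 and VCaP parental, and the intervals of the lower pair overlapped. SHROOM1 was 9.23-fold (7.73 to 11.1) higher in VCaP–ENZ48 than in VCaP parental and 6.42-fold (5.00 to 8.37) lower in LNCaP–ENZ168 than in VCaP–ENZ48.

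**Figure D1:**
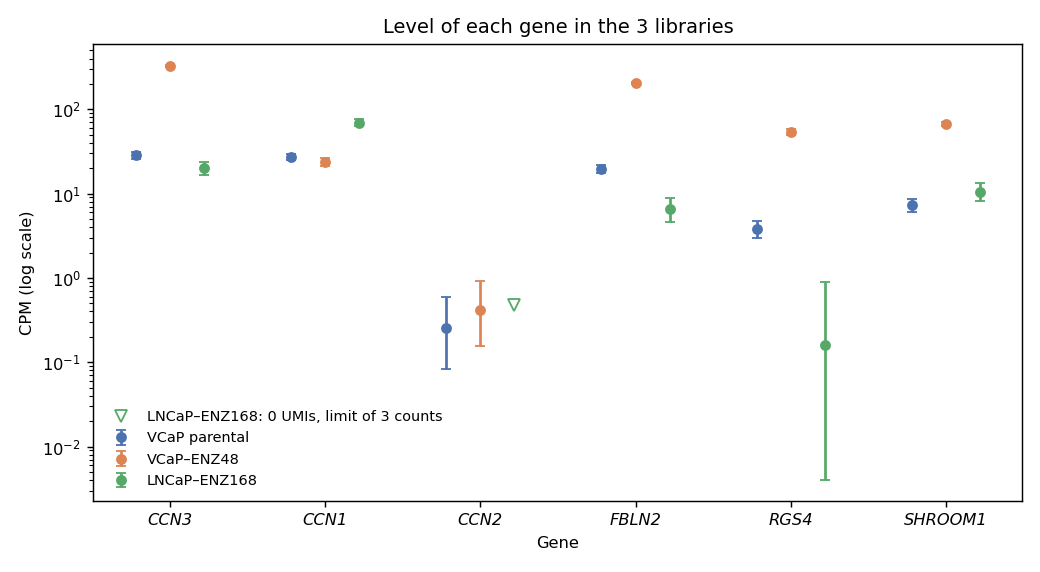
Level of each gene in CPM on a log axis in VCaP parental, VCaP–ENZ48 and LNCaP–ENZ168, 1 library each, with exact Poisson 95% intervals as bars, and an open triangle at the limit of 3 counts where a library had 0 UMIs. CCN3, FBLN2, RGS4 and SHROOM1 are highest in VCaP–ENZ48, CCN1 is highest in LNCaP–ENZ168 at 69.2 CPM, and CCN2 lies below 1 CPM throughout.

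The 6 genes were then set against all genes of the same libraries. Among 7729 genes that averaged 10 CPM or more over the VCaP libraries, 8.19% had a log2 ratio of at least 1 and 0.0906% (7 genes) had a ratio of at least 3. Of the 6 genes, 5 passed that filter, CCN2 did not, and 4 of the 5 were past each of these thresholds, which is what the genes were chosen for. Scaled by trimmed mean of M values (TMM) and median-of-ratios factors in place of library totals, SHROOM1 was at 2.79 and 2.84, below 3. RGS4 (3.52), CCN3 (3.48), FBLN2 (3.32) and SHROOM1 (3.04) held places 4 to 7 from the top, and CCN1 held place 4593. The median over all genes was -0.066.

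LNCaP–ENZ168 over VCaP–ENZ48 was not the contrast that chose the genes, but both pairs share the VCaP–ENZ48 library, so the values of the second pair are not independent of the first. Over 8854 genes the median log2 ratio was 0.65, with 35.5% of genes at 1 or more and 11.1% at -1 or less. CCN1 (1.503) was the only gene of the 5 tested at 1 or more, and with TMM factors it was at 0.98, below that threshold, while CCN3 (-3.96), FBLN2 (-4.78), RGS4 (-5.57) and SHROOM1 (-2.57) were at -1 or less. The split of all genes depended on the scaling, with 3145 genes at 1 or more and 979 at -1 or less by library total and 1443 and 1440 by TMM factors. For the VCaP pair the counts were 633 and 523 (6.77% of genes) by library total and 472 and 1032 by TMM factors. TMM factors moved the median of all genes from -0.066 to -0.34 and from 0.65 to 0.10 in the 2 pairs, and the signs of CCN1, CCN3, FBLN2, RGS4 and SHROOM1 were the same under every scaling tried.

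**Figure D2:**
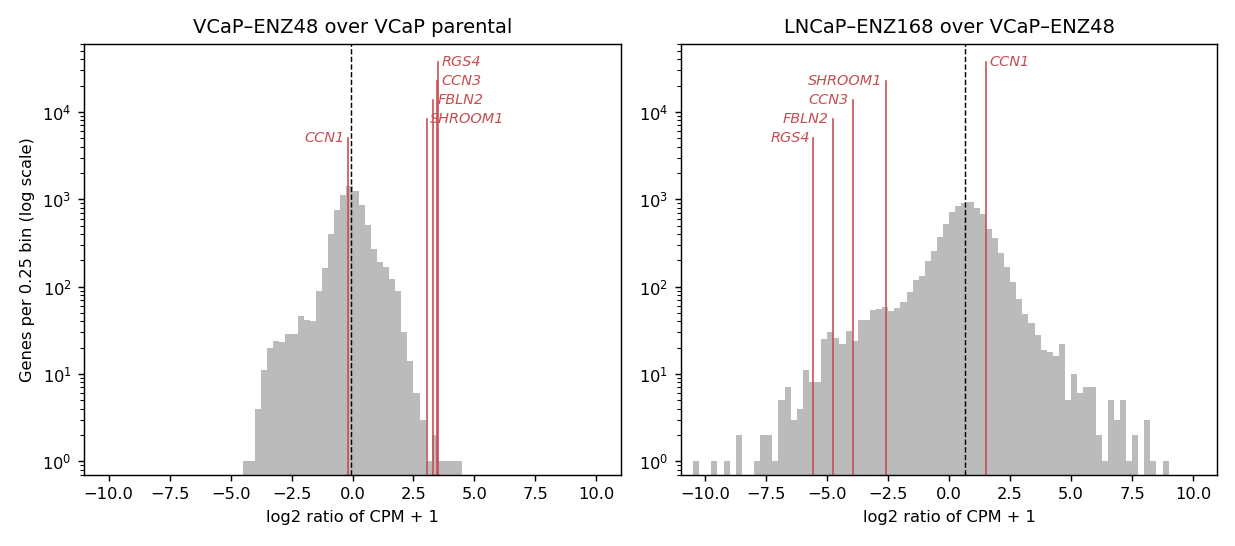
Histograms of the log2 ratio of CPM + 1 over all genes that averaged 10 CPM or more, for VCaP–ENZ48 over VCaP parental on the left and LNCaP–ENZ168 over VCaP–ENZ48 on the right, with genes per bin on a log axis, the median dashed and the genes of interest as red lines. On the left RGS4, CCN3, FBLN2 and SHROOM1 lie at the upper end, between 3.04 and 3.52, and CCN1 lies near the median of -0.066.

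Relatives of the same families did not share the values of these genes. In the CCN family 5 of 6 genes were matched to the count tables, and the other matched members were near 0, with CCN5 at 3, 2 and 0 UMIs and CCN6 at 0, 0 and 2 UMIs in VCaP parental, VCaP–ENZ48 and LNCaP–ENZ168. The 7 fibulin relatives of FBLN2 summed to 1.18 CPM in VCaP parental and 1.96 CPM in VCaP–ENZ48, and FBLN1 among them had 17 and 5 UMIs. None of the 7 reached 10 CPM in a library, so FBLN2 was the only fibulin gene with a usable count.

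In the RGS family 17 of 21 genes were matched, and 8 of them besides RGS4 reached 10 CPM in at least 1 library. RGS10 was the most abundant, at 89.2, 88.9 and 60.8 CPM in VCaP parental, VCaP–ENZ48 and LNCaP–ENZ168. Its VCaP values had a log2 ratio of -0.0046 (-0.11 to 0.10), where RGS4 had 3.52. RGS11 was at 5.23 and 14.1 CPM in the VCaP libraries, a ratio of 1.28 (1.08 to 1.79), and RGS17 was at 16.2 and 21.4 CPM, a ratio of 0.38 (0.17 to 0.63). The ratios of RGS3 (0.036), RGS12 (0.058), RGS14 (0.54), RGS19 (-0.20) and RGS9 (-0.47) lay within 1 of 0. Of the 3 relatives that passed a mean of 10 CPM over the VCaP pair, 0 were at 1 or more and 0 at -1 or less. In the SHROOM family SHROOM3, which drives apical constriction, was at 15.9 and 11.9 CPM in the VCaP libraries and at 26.5 CPM in LNCaP–ENZ168, and SHROOM2 stayed below 10 CPM.

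**Figure D3:**
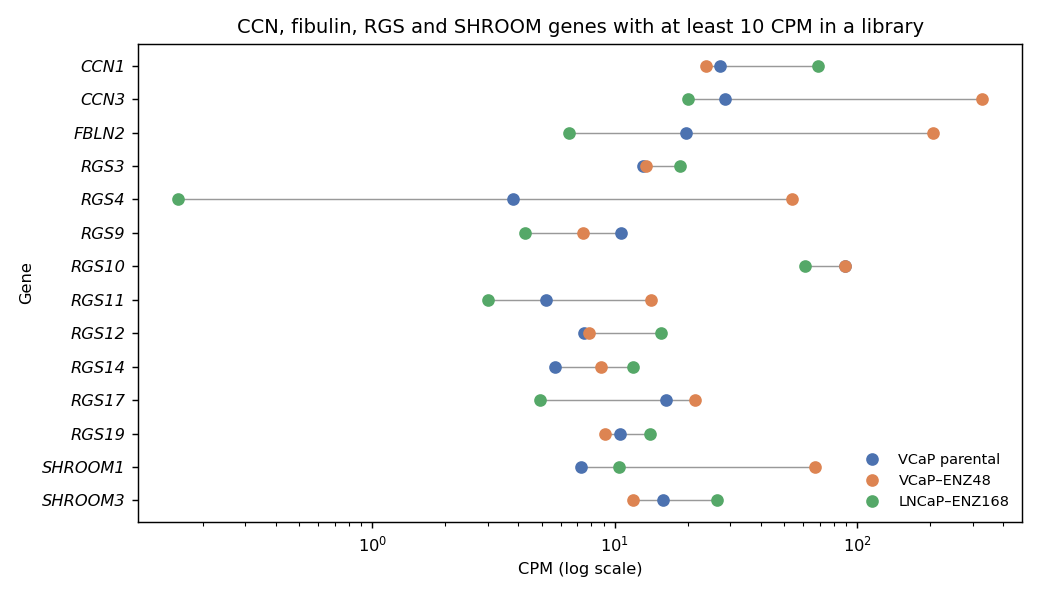
Level in CPM on a log axis of every CCN, fibulin, RGS and SHROOM gene that reached 10 CPM in a library, with 1 point per library and a line from the lowest to the highest. CCN3, FBLN2, RGS4 and SHROOM1 stand apart by their VCaP–ENZ48 point, while RGS10 lies between 60.8 and 89.2 CPM in all 3 libraries.

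Partners and pathways of these genes were counted by lists, each read beside the shares of all genes given above (8.19% at 1 or more and 6.77% at -1 or less for the VCaP pair). Among other matricellular proteins 3 genes passed the filter and THBS1, encoding thrombospondin 1, was at 1 or more, going from 25.9 to 52.9 CPM (1.00). LTBP3 (0.88) and LTBP1 (0.72), which hold latent TGF-beta in the matrix, were the other two. THBS1 and LTBP1 were low in LNCaP–ENZ168, at 1.27 and 2.22 CPM, whereas LTBP3 was at 38.6 CPM. Of receptors of CCN proteins, 5 passed and none was past 1 in either direction, with integrin genes ITGB1 at -0.58 (-0.69 to -0.48) and ITGA6 at 0.29 (0.13 to 0.46). IGF2R was at 7.28, 7.69 and 74.6 CPM in VCaP parental, VCaP–ENZ48 and LNCaP–ENZ168.

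The Hippo pathway is the setting in which CCN1 and CCN2 are best known. Of 10 Hippo components that passed, 0 were at 1 or more or at -1 or less and the median ratio was 0.062, with TEAD1 at -0.24, STK3 at -0.33 and VGLL4 at 0.49. Of YAP and TEAD target genes other than CCN1 and CCN2, 2 passed in the VCaP pair, GADD45A (-0.40) and ASAP1 (-0.38), and PTPN14 was at 7.74 and 12 CPM below that filter. YAP1 itself, chosen after its values were seen, was at 0.717, 4.41 and 34.5 CPM in VCaP parental, VCaP–ENZ48 and LNCaP–ENZ168, and its usual partner WWTR1 (TAZ) was at 3.54, 2.59 and 0.158 CPM. YAP1 and CCN1 were highest in LNCaP–ENZ168, whereas WWTR1 and TEAD1 (64.3, 54.2 and 36.6 CPM) were lowest there. Of 11 Hippo components tested in LNCaP–ENZ168 over VCaP–ENZ48, 4 were at 1 or more and 1 was at -1 or less. The shares of all genes were 35.5% and 11.1%, and a link between YAP1 and CCN1 was not tested.

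In the TGF-beta list 1 of 4 genes tested was at 1 or more, ID1, a dominant negative helix-loop-helix factor, at 229 and 472 CPM (1.04). SKIL, a feedback inhibitor of SMADs, had a ratio of 0.89 and SMAD2 had -0.066. SRF and actomyosin genes had 0 of 11 past 1 in either direction and a median of -0.067, with ACTG1 at -0.17, MYL12B at -0.067 and ACTB at 0.18. Alpha subunits of G proteins, which include the Gi and Gq substrates of RGS4, had 1 of 5 at -1 or less. That gene was GNAI1, at 128 and 62.5 CPM (-1.02). GNAI3 was at -0.45, and GNAS, which is neither Gi nor Gq, was at 0.14.

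Immediate early genes, to which CCN1 and CCN2 also belong, were split. Of 13 tested, 4 were at 1 or more and 3 at -1 or less, with a median of -0.27. IER2 had a ratio of 1.47 (1.39 to 1.58), FOS of -0.31 (-0.34 to -0.27) and JUN of -1.02 (-1.08 to -0.97). In LNCaP–ENZ168 over VCaP–ENZ48, 4 of the 13 tested were at 1 or more and 0 at -1 or less, beside 35.5% and 11.1% of all genes. Known targets of the androgen receptor, which the drug inhibits, had 0 of 13 at 1 or more and 3 at -1 or less, with a median of -0.28. The 3 were SLC45A3 (-2.02), FKBP5 (-1.45) and PMEPA1 (-1.10), named after their values were seen. KLK2 and ACPP were higher in VCaP–ENZ48, at 0.97 and 0.94. The summed level of all 16 in the list was 5064 CPM in VCaP parental and 8647 CPM in VCaP–ENZ48, and most of the second sum was KLK2 (3053 CPM) and ACPP (3767 CPM).

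In LNCaP–ENZ168 over VCaP–ENZ48 the same lists are read beside 35.5% of genes at 1 or more, 11.1% at -1 or less and a median of 0.65. Actomyosin genes had 8 of 13 at 1 or more and 0 at -1 or less, with a median of 1.14 and ACTB at 213 and 779 CPM in VCaP–ENZ48 and LNCaP–ENZ168. Receptors of CCN proteins had 4 of 8 and 0, Hippo components 4 and 1 of 11, and YAP and TEAD targets 2 and 0 of 4, with GADD45A at 13.6 and 45.3 CPM. The TGF-beta list had 1 of 6 at 1 or more, G protein alpha subunits had 2 and 2 of 7, and other matricellular proteins had 0 and 2 of 3. Androgen targets were the list with most genes at -1 or less, 7 of 14, with KLK2 at 3053 and 27.1 CPM.

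Matrix genes such as CCN2 and FBLN2 are typical of fibroblasts, so markers of other cell types were read in the same libraries. Of 12 fibroblast and stromal markers 1 reached 10 CPM in each library, and their summed level was 22.2, 28.0 and 40.1 CPM in VCaP parental, VCaP–ENZ48 and LNCaP–ENZ168. In VCaP almost all of it was LUM, at 21.0 and 25.2 CPM, and COL3A1, COL6A3, PDGFRA, THY1, FAP and VIM had 0 UMIs in VCaP parental. FBLN2 was at 206 CPM in VCaP–ENZ48, above the sum of that list. In LNCaP–ENZ168 most of the sum was VIM, at 29.5 CPM. Endothelial markers summed to 19.9, 18.0 and 2.38 CPM, of which ENG was 19.6 and 18.0 CPM in VCaP while PECAM1 had 2, 0 and 0 UMIs, and leukocyte markers to 0.461, 0.699 and 0.158 CPM. Neuroendocrine markers did move with the groups, from a sum of 128 CPM in VCaP parental to 276 CPM in VCaP–ENZ48 and 26.9 CPM in LNCaP–ENZ168, with CHGB at 75.6, 192 and 0.158 CPM and CHGA at 15.1, 32.2 and 0 CPM. Of 5 tested in the VCaP pair, 3 were at 1 or more. The part of neuroendocrine genes in the values of CCN3, FBLN2, RGS4 and SHROOM1 was not tested.

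How the UMIs spread over cells was compared after every cell was thinned to 2000 UMIs, which left out 0, 30 and 1 cells of VCaP parental, VCaP–ENZ48 and LNCaP–ENZ168. Each library held 1 cell line, so no cell type without the gene gives a background within it, and free RNA in the droplets can place UMIs in cells that do not express a gene. LNCaP–ENZ168 gives no such background for RGS4 and CCN2 in VCaP, since it held 1 and 0 of their UMIs in all. A share of 0% allows up to 0.301% of the 997 thinned cells of VCaP parental and 0.318% of the 943 of LNCaP–ENZ168.

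CCN3 was found in 5.12% of cells (3.83 to 6.67) in VCaP parental, 39.7% (36.5 to 42.9) in VCaP–ENZ48 and 3.61% (2.51 to 5.00) in LNCaP–ENZ168. Without thinning the shares were 32.6%, 75.9% and 9.43%. FBLN2 was found in 4.01%, 32.5% and 1.27% of thinned cells, RGS4 in 0.802%, 10.0% and 0%, and SHROOM1 in 1.40%, 11.1% and 2.12%, in the same order (25.1%, 74.8% and 4.03%, then 5.42%, 36.3% and 0.106%, then 10.5%, 44.5% and 6.89% without thinning). For these 4 genes the VCaP–ENZ48 interval lay above both others. CCN1 was found in 4.41% (3.22 to 5.88), 4.14% (2.95 to 5.64) and 11.1% (9.20 to 13.3) of thinned cells, where the VCaP intervals overlapped. Without thinning CCN1 had a UMI in 31.6%, 17.5% and 28.1% of cells, so the raw shares of the VCaP libraries differed where the intervals at equal depth overlapped. CCN2 was found in 0%, 0.218% and 0% of thinned cells and in 0.201%, 0.634% and 0% of whole cells.

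**Figure D4:**
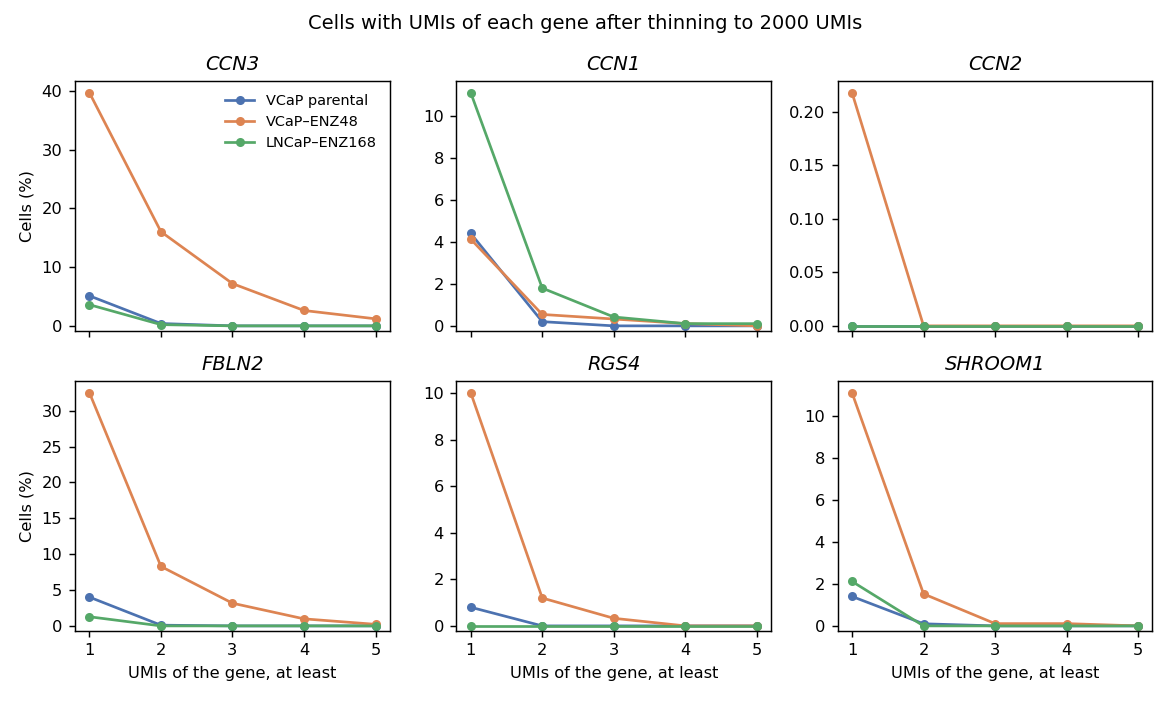
Share of cells, in percent, with at least 1 to 5 UMIs of each gene after thinning to 2000 UMIs, in VCaP parental, VCaP–ENZ48 and LNCaP–ENZ168, with a scale of its own for each gene. For CCN3 39.7% of VCaP–ENZ48 cells have at least 1 UMI against 5.12% of VCaP parental cells, and for CCN1 the VCaP curves start together at 4.41% and 4.14%.

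CCN3 was uneven between cells of VCaP–ENZ48. The highest cell had 78 CCN3 UMIs, the median cell had 2, and 152 of the 947 cells had 10 or more while 228 had 0. Cells with 10 or more were deep, with a median of 23235 UMIs against 6196 for cells with 0, so these counts mix depth with level. In thinned cells the variance of CCN3 was 2.04 times its mean, where 1 would be pure sampling. The median of this ratio over 7891 genes of at least 0.02 UMIs per thinned cell was 1.04 and CCN3 held place 71. A Poisson spread of the same mean would have put a CCN3 UMI in 50% of thinned cells, above the measured 39.7%.

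FBLN2 held place 226 by the same ratio, at 1.37. CCN1 held place 144 at 1.55, from 38 cells with a UMI, of which 2 had 3 UMIs and 1 had 4. RGS4 and SHROOM1 were at 1.21 and 1.19. One VCaP parental cell had 29 of the 532 CCN1 UMIs, and the same cell had 4 of the 5 CCN2 UMIs and 6 of CCN3. The other cell with a CCN2 UMI in VCaP parental had 4 CCN1 UMIs. A further VCaP parental cell had the most UMIs of both RGS4 (5) and SHROOM1 (11), with 0 of CCN3 and CCN1.

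Cells were then ranked within each library by their UMIs of S and G2M phase genes and cut into 3 equal parts (terciles), because the VCaP libraries differed in these genes. G2M genes had 49 of 52 at -1 or less and a median ratio of -3.05, and S phase genes had 32 of 40 and -1.79. In VCaP parental CCN3 was at 39.2 CPM (34.3 to 44.6) in the least cycling tercile and 19.3 CPM (16.1 to 22.9) in the most cycling tercile. SHROOM1 was at 9.59 CPM (7.27 to 12.4) and 4.86 CPM (3.34 to 6.82) and RGS4 at 5.55 CPM (3.82 to 7.80) and 2.21 CPM (1.24 to 3.64), so all 3 were higher in less cycling cells. FBLN2 was about equal in these terciles, at 17.2 and 17.5 CPM, and was at 24.0 CPM (20.5 to 28.0) in the middle tercile.

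In VCaP–ENZ48 the least and most cycling terciles had 336 CPM (320 to 351) and 305 CPM (289 to 323) of CCN3. FBLN2 had 196 and 217 CPM, SHROOM1 69.1 and 67.4 CPM, and RGS4 48.6 CPM (43.0 to 54.8) and 66.4 CPM (58.8 to 74.7), in the same order. The most cycling tercile here had a median of 7 S and G2M UMIs, against 54 in VCaP parental, so the terciles of the VCaP libraries are not the same classes of cells. LNCaP–ENZ168 had CCN3 at 26.2 CPM (20.0 to 33.7) and 8.92 CPM (5.37 to 13.9) in its least and most cycling terciles. CCN1 was at 72.9 CPM (62.3 to 84.9) and 46.0 CPM (37.4 to 56.1) in the same terciles. Both were lowest in the most cycling tercile, but CCN1 was highest in the middle tercile, at 90.9 CPM (77.8 to 106). When only the least cycling terciles of both VCaP libraries were compared, the log2 ratios were 3.07 for CCN3, 3.44 for FBLN2, 2.92 for RGS4, 2.73 for SHROOM1 and -0.42 for CCN1. These terciles had medians of 6 and 2 such UMIs in VCaP parental and VCaP–ENZ48, so they were not matched, and the ratios of CCN3, RGS4 and SHROOM1 were lower than over all cells. The ratios repeat, in fewer cells, the contrast that chose the genes, and the part of the cell cycle in it was not tested.

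Terciles were also cut by UMIs of 16 androgen target genes, which include none of the 6 genes and whose UMIs in VCaP–ENZ48 were mostly those of KLK2 and ACPP. In VCaP–ENZ48 CCN3 was at 239 CPM (226 to 253) in the tercile with fewest androgen target UMIs and at 463 CPM (442 to 484) in the tercile with most. SHROOM1 was at 50.1 CPM (44.2 to 56.6) and 98.7 CPM (89.4 to 109) and FBLN2 at 179 CPM (168 to 191) and 246 CPM (231 to 262), so the 3 genes were higher in the cells with most UMIs of this list. RGS4 was at 48.9 CPM (43.1 to 55.4) and 62.0 CPM (54.6 to 70.1) with intervals that overlapped. CCN1, at 18.3 CPM (14.8 to 22.4) and 34.5 CPM (29.1 to 40.7), had the order of CCN3. However, the share of unthinned cells with a CCN1 UMI was about equal in the 2 terciles, at 18.3% and 18.7%. Its level also leaned on few cells, since 1 cell held 20 of the 340 CCN1 UMIs of the library. VCaP parental had the same order for CCN3, at 22 CPM (18.5 to 25.9) and 38.6 CPM (33.9 to 43.8), for SHROOM1, at 4.85 CPM (3.32 to 6.85) and 12.1 CPM (9.58 to 15.2), and for RGS4, at 1.97 CPM (1.05 to 3.37) and 5.83 CPM (4.11 to 8.04), all with separate intervals. FBLN2 was level there at 20.2 and 19.2 CPM. In LNCaP–ENZ168 the terciles had few such UMIs, with medians of 0 and 4, and CCN3 was at 15.4 and 20.6 CPM.

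**Figure D5:**
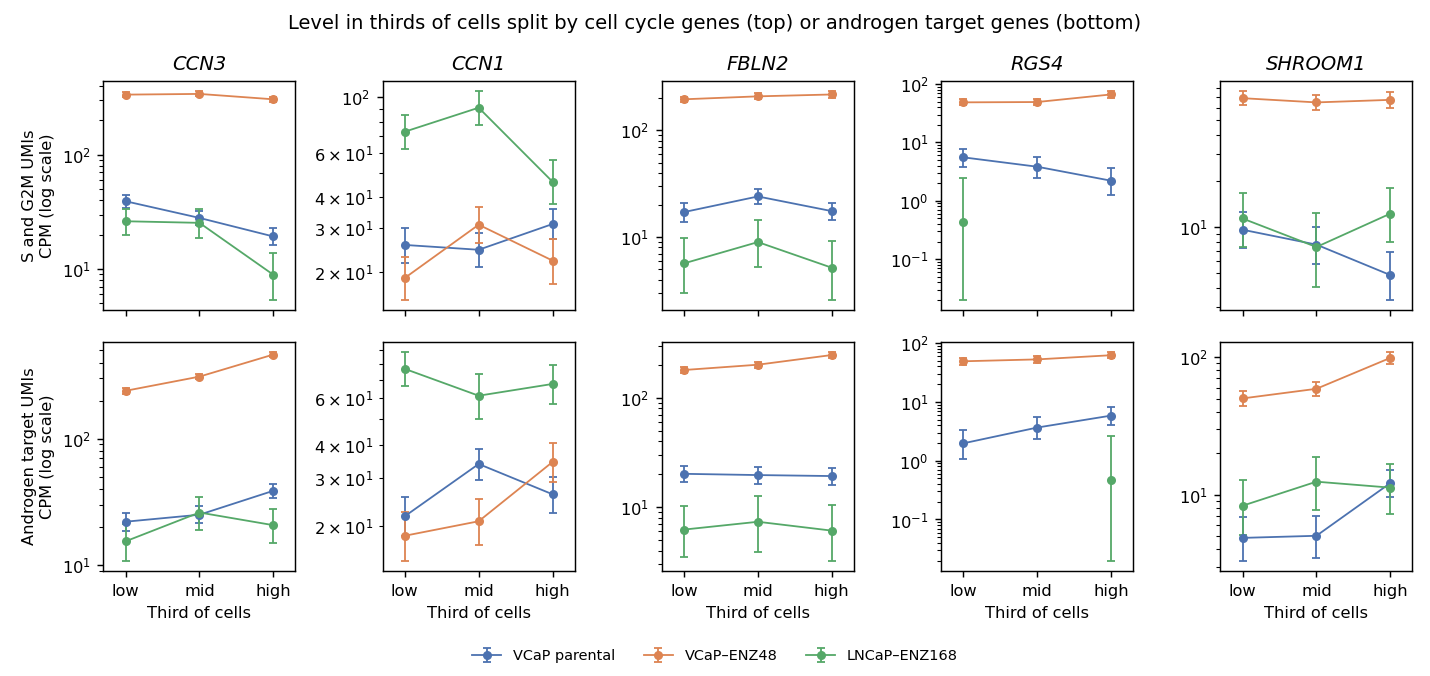
Level in CPM on log axes with exact Poisson 95% intervals in the low, middle and high tercile of the cells of each library, cut by S and G2M UMIs in the top row and by androgen target UMIs in the bottom row, with lower interval ends cut at 0.02 CPM and terciles without a UMI left out. In the bottom row CCN3 in VCaP–ENZ48 goes from 239 to 463 CPM, and in the top row CCN3 in VCaP parental goes from 39.2 to 19.3 CPM.

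Depth and mitochondrial share, a sign of RNA quality, were read the same way. Across terciles by UMIs per cell in VCaP–ENZ48, CCN3 was at 357, 385 and 301 CPM and FBLN2 at 243, 218 and 195 CPM from the shallowest to the deepest. Across terciles by mitochondrial share CCN3 was at 327, 305 and 365 CPM in VCaP–ENZ48 and at 20.1, 24.4 and 42.4 CPM in VCaP parental. In VCaP parental CCN3 was thus highest in cells rich in mitochondrial transcripts, a pattern whose part in the ratio was not tested. Across the mitochondrial terciles of VCaP–ENZ48, FBLN2 was at 208, 181 and 239 CPM and RGS4 at 60.7, 51.2 and 48.6 CPM. RGS4 had a UMI in 41.8%, 40.5% and 26.7% of the unthinned cells of these terciles. Barcodes ending in a base, 138 and 127 of the VCaP cells, gave 25.1 and 259 CPM for CCN3, 19.8 and 201 CPM for FBLN2, 6.29 and 56.3 CPM for RGS4 and 9.11 and 56.3 CPM for SHROOM1.

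Co-expression over the cells of a library was small in size, and each r is a description over cells that share a library and differ in depth. Values were log2 of counts per 10000 UMIs + 1. In the 947 cells of VCaP–ENZ48 the highest Pearson r between 2 of the 6 genes was 0.20 for CCN3 with CCN1 (Spearman 0.16), followed by 0.19 for CCN3 with FBLN2 (Spearman 0.19). FBLN2 with SHROOM1 had an r of 0.13, and CCN3 with RGS4 had 0.013. Of the thinned cells 13.1% (11 to 15.4) had a UMI of both CCN3 and FBLN2, and the product of their single shares was 12.9%. Both CCN3 and CCN1 were found in 2.51% (1.60 to 3.74) where the product was 1.64%. Both RGS4 and SHROOM1 were found in 1.09% (0.524 to 2.00) where the product was 1.12%. The higher genes were thus found together about as often as their single shares give for CCN3 with FBLN2 and RGS4 with SHROOM1, within counting error, while the interval for CCN3 with CCN1 also reached its product.

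Of CCN3, FBLN2, RGS4 and SHROOM1, none was found in 33.8% of thinned VCaP–ENZ48 cells, exactly 1 in 43.1%, 2 in 19.5%, 3 in 3.16% and all 4 in 0.436%. In VCaP parental 10.5% of cells had exactly 1 and 0.401% had 2, and in LNCaP–ENZ168 the shares were 6.79% and 0.106%. Cells with 3 or 4 of these genes were seen in VCaP–ENZ48 and were 0 of 997 and 0 of 943 thinned cells in the other libraries, which allows up to 0.301% and 0.318%. These genes were chosen for higher levels in VCaP–ENZ48, and their single shares were low in the other libraries. Few or no such cells would be seen there whether or not the genes go together, so the counts are a description only.

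The genes most like each member over the cells of VCaP–ENZ48 were taken among 8867 others with a UMI in at least 10% of cells. For CCN1 they were the immediate early genes IER2 (Pearson r 0.24), JUNB (0.23) and FOS (0.23). In VCaP parental the same r were 0.16, 0.052 and 0.12. For CCN3 they were EPHB6, a receptor of the Eph family (0.28), DHRS7, a short-chain dehydrogenase (0.26), and TMEM45B (0.26). For FBLN2 they were TM7SF2, a sterol reductase of cholesterol synthesis (0.34), FOLH1, which encodes prostate-specific membrane antigen (0.34), and TMEM59 (0.31). For RGS4 they were PCP4, a calmodulin-binding peptide (0.22), and TMSB10 (0.20) and DSTN (0.18), which bind actin. For SHROOM1 they were NEAT1, a nuclear noncoding RNA (0.25), GPAT3, an acyltransferase of glycerolipid synthesis (0.25), and PCP4 (0.23). In VCaP parental, where these 4 genes had fewer UMIs, every such r was lower. In the order named they were 0.093, 0.18 and 0.10 for CCN3 and 0.066, 0.10 and 0.054 for FBLN2. They were 0.081, 0.010 and 0.031 for RGS4 and 0.12, -0.023 and 0.19 for SHROOM1.

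The medians of r over all 8867 genes ranged from 0.014 to 0.030 for the 5 genes, and the r with log2 depth from 0.043 for SHROOM1 to 0.12 for FBLN2. The r with mitochondrial share ranged from -0.16 for RGS4 to 0.18 for FBLN2. With the androgen target list r ranged from 0.020 for RGS4 to 0.264 for SHROOM1, where NEAT1 had 0.253. The part of these measures in the genes most alike was not tested. PCP4 was on both the RGS4 and the SHROOM1 list and was at 89.5, 460 and 0.158 CPM in VCaP parental, VCaP–ENZ48 and LNCaP–ENZ168. GPAT3 was at 1.38, 37.1 and 0.475 CPM and TMEM45B at 117, 337 and 17.7 CPM. These 3 genes thus had the order of RGS4 over the libraries, which is also that of CCN3 and FBLN2. Of the other genes most alike, EPHB6, DHRS7, NEAT1 and DSTN had this order too. TM7SF2, FOLH1, TMEM59, TMSB10, IER2, JUNB and FOS did not.

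Neighbouring genes were read to see whether the differences extended along the chromosome. Each neighbour is the nearest gene on its side with at least 10 CPM in a library, so nearer genes at lower levels were passed over. Distances ran from 2398 bases for DDAH1 to 494495 bases for STX7, so these values say little about the DNA close to most of the genes. On either side of CCN3 the nearest genes with 10 CPM in a library were MAL2 and TAF2, with VCaP log2 ratios of 0.14 and -0.20 where CCN3 had 3.48. CCN1 lies 2398 bases from DDAH1 (-0.28), which was at 57.2 CPM in LNCaP–ENZ168 and at 15.9 and 12.9 CPM in the VCaP libraries, the same order as CCN1. ZNHIT6, on its other side, had a ratio of -0.064. FBLN2 lies between HDAC11, at 2.41 and 6.71 CPM (1.18, from 47 and 96 UMIs), and CHCHD4 (-0.95). For RGS4 they were HSD17B7 (-0.69), 255952 bases away, and NUF2, a kinetochore gene 189774 bases away, at 104 and 9.16 CPM (-3.37). SHROOM1 lies between SEPTIN8 (0.41) and UQCRQ (-0.62), and CCN2 between ENPP1 (-0.51) and STX7 (0.50). HDAC11 had the highest ratio of these neighbours and the sign of FBLN2, but it lay below the ratios of CCN3, FBLN2, RGS4 and SHROOM1. NUF2, a G2M gene, had the opposite sign to RGS4.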

How the data were processed

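Single-cell RNA-seq of VCaP parental, VCaP–ENZ48 and LNCaP–ENZ168 was performed by Drop-seq, with 1 library each. The authors aligned reads to GRCh38 with STAR and counted UMIs with the Drop-seq tools and Picard on Gencode annotation, expecting 1000 cells per sample. What was deposited is a table of unscaled UMI counts, genes by barcodes, and the thresholds of any cell filter on these libraries are not given in the sources used here. A gene without a row in a library was counted as 0.

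Barcodes with fewer than 300 genes, under 500 UMIs or over 25% mitochondrial UMIs were dropped, and doublets were not removed. UMIs were summed per library and scaled to CPM, and log2 ratios used CPM + 1. Intervals are exact Poisson for levels, exact conditional for ratios, without the + 1, and Clopper-Pearson for shares, all at 95%. A count of 0 allows up to 3 counts. Lists numbered 18 written by hand and 2 (S and G2M) from Seurat, with 311 of 329 genes matched. The genes and lists were chosen with earlier results of these data known. Named genes were the 6 genes, family members with at least 10 CPM in a library, the 3 most abundant genes of each other list, the 3 most alike over VCaP–ENZ48 cells, and the nearest genes at 10 CPM. Some genes that this rule names are not reported here. Coordinates are from Gencode 44, a later version than the authors used. Alternatives covered cell filters, weighting, scaling (edgeR TMM factors, median-of-ratios), pseudocount, level minimum, thinning and, chosen after seeing the data, barcodes ending in a base. Steps were tested on simulated data. Python 3.11.15, numpy 2.4.6, pandas 2.3.3, scipy 1.17.1, R 4.3.3, edgeR 4.0.16 and Seurat 5.3.0 were used.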

Additional observations from a re-analysis of the deposited data

How the results depend on the processing

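Every log2 ratio of CCN3, FBLN2, RGS4 and SHROOM1 kept its sign under all alternatives, and CCN1 stayed below 0 in the VCaP pair and above 0 in the second pair. CCN2 took a ratio of 0 in both pairs among the least cycling cells and kept its sign otherwise. No cell filter, at most 15% mitochondrial UMIs, equal weight for each cell, the removal of barcodes above 3 times the median depth and a pseudocount of 0.1 CPM moved no ratio by more than the reach of its counting interval on that side. The ratios and shares below moved by more than that reach unless stated. The gene counts below have no such interval, and those that changed most are given. The number of genes tested changed with the level minimum and the scaling. The cause of each move was not tested except where stated. With TMM factors the ratios were in the VCaP pair CCN3 3.20, CCN1 -0.47 and FBLN2 3.05 and in the second pair CCN3 -4.47, CCN1 0.98 and SHROOM1 -3.06. RGS4 (3.29) and SHROOM1 (2.79) in the VCaP pair moved by less than that reach, and SHROOM1 was then below 3. With median-of-ratios factors RGS4 (3.35) and SHROOM1 (2.84) in the VCaP pair also moved by less than that reach. The ratios that moved by more were in the VCaP pair CCN3 3.26, CCN1 -0.41 and FBLN2 3.10. In the second pair they were CCN3 -4.43, CCN1 1.02 and SHROOM1 -3.03. Without mitochondrial and ribosomal protein genes the ratios were in the VCaP pair CCN3 3.63 and in the second pair CCN3 -4.25 and CCN1 1.24. With a pseudocount of 10 CPM, which shrinks low levels by construction, the ratios were in the VCaP pair CCN3 3.14, FBLN2 2.86, RGS4 2.21 and SHROOM1 2.16 and in the second pair CCN3 -3.49, CCN1 1.23, FBLN2 -3.71, RGS4 -2.65 and SHROOM1 -1.91. In the least cycling tercile the ratios were in the VCaP pair CCN3 3.07, CCN1 -0.42, RGS4 2.92 and SHROOM1 2.73 and in the second pair CCN3 -3.63 and CCN1 1.89. Among barcodes ending in a base the ratios were in the VCaP pair CCN3 3.31, CCN1 -0.46, RGS4 2.98 and SHROOM1 2.50 and in the second pair CCN3 -3.50 and CCN1 1.94. For the VCaP pair, genes at least 1 were 1937 with a mean of at least 1 CPM, 146 with a mean of at least 50 CPM and 299 with a pseudocount of 10 CPM. For the VCaP pair, genes at least 3 were 3 with a mean of at least 50 CPM and 2 with a pseudocount of 10 CPM. For the second pair, genes at least 1 were 5224 with a mean of at least 1 CPM, 1031 with a mean of at least 50 CPM, 1443 with TMM factors, 1535 with median-of-ratios size factors and 2093 with a pseudocount of 10 CPM. For the second pair, genes at most -1 were 3070 with a mean of at least 1 CPM and 320 with a mean of at least 50 CPM. Thinned to 1000 UMIs, the VCaP–ENZ48 shares were CCN3 25.8%, CCN1 2.11%, FBLN2 19.2%, RGS4 4.96% and SHROOM1 6.65%. Thinned to 4000 UMIs, the VCaP–ENZ48 shares were CCN3 58.1%, CCN1 7.35%, FBLN2 49.1%, RGS4 15.4% and SHROOM1 22.3%. Without thinning, the VCaP–ENZ48 shares were CCN3 75.9%, CCN1 17.5%, FBLN2 74.8%, RGS4 36.3% and SHROOM1 44.5%. Without barcodes above 3 times the median UMIs, the VCaP–ENZ48 shares were CCN2 0% and SHROOM1 13.4%. Depth sets these shares by construction. No paired analysis was possible because every condition is a lone library. Depth limits CCN2 in every library and RGS4 in LNCaP–ENZ168, and the single library per group limits every comparison.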
